A study of Mus musculus with 6 samples.

Results

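The cytochrome P450 genes of thymic medullary epithelial cells (MECs) were described in mice with and without the autoimmune regulator gene Aire. A member was a gene whose probe set carried exactly 1 gene symbol, with Cyp followed directly by a digit. The rule found 87 such genes, each read by 1 probe set, among 19938 genes named in the same way. Expression was measured on 6 Affymetrix arrays, each from the MECs of 1 mouse. The WT group was 3 mice with Aire and the KO group was 3 mice without it (Aire KO), all on the (B6xNOD)F1 background and 4 to 6 weeks old. No treatment is given in the labels. Stromal cells were freed from the thymus with collagenase and dispase, and CD45- Ly51int cells with high MHC class II were sorted. RNA was amplified in 2 rounds, so values describe the sorted population of a mouse and not single cells.

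Cytochrome P450 enzymes are haem proteins that use molecular oxygen and electrons from a partner reductase to oxidise small lipophilic molecules. Families 1 to 4 handle mainly foreign compounds and fatty acids, and the higher-numbered families make or break down steroids, sterols, bile acids and the active forms of vitamins A and D. Most are known from liver, intestine, airway, skin, adrenal gland or gonad. MECs transcribe many genes of such peripheral organs, and Aire is the transcriptional regulator best known for driving that programme, through which developing T cells meet self antigens.

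Values are log2 intensities unless a fold is given, and a difference is the KO mean minus the WT mean. A gene was tested with limma if it exceeded 5.97, the 40th percentile of all values, on at least 3 arrays, and was called at an adjusted p under 0.05 (two-sided, Benjamini-Hochberg over 13925 tested genes). Of the 87 Cyp genes, 34 were tested and 53 were too dim. Median intensities of the arrays lay between 92.9 and 98.2, and log2 values correlated at 0.990 to 0.993 within the WT group, 0.991 to 0.993 within the KO group and 0.976 to 0.985 between groups. The probe set of Aire itself read 11.97 ± 0.04 in WT and 12.41 ± 0.02 in KO (SD, n = 3), higher on every KO array by 0.44 (adjusted p = 0.0017 in limma). It cannot serve as a check of the genotype, because the deleted stretch of the gene is not named in the labels; WT and KO stand throughout for arrays so labelled. All 12 listed medullary epithelial markers passed the filter on intensity, and 9 of them were not called. Krt5, a basal keratin, was lower by 0.84 (adjusted p = 0.00047), and Krt14 and Epcam by 0.44 and 0.37 (adjusted p = 0.012 and 0.021). Krt14 lost its call without KO replicate 1 or 2 (0.057 and 0.052), and Epcam without WT3, KO1 or KO3 (0.058, 0.092 and 0.060), where WT3 stands for WT replicate 3 and so on.

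In KO MECs 10 of the 34 tested Cyp genes were lower, 6 were higher and 18 were not called, so 47.1% were called in either direction beside 26.1% of all tested genes. The lower genes made up 29.4% of those tested, beside 14.1% of all tested genes, and the higher genes 17.6% beside 12%. These shares of all tested genes, 14.1% and 12%, also stand beside the counts of every gene list below. Cyp1a2 fell the most, 9.80-fold, and no Cyp gene rose by more than Cyp27a1, 1.46-fold. Falls of 2-fold or more were found for 4 Cyp genes, 11.8% of those tested beside 2.11% of all tested genes, and rises of that size for 0 of 34 beside 0.524%. Of these 4, Cyp1a2 and Cyp11a1 passed the filter through the WT arrays alone, and falls of 2-fold were not counted without the filter. Of the 10 lower genes, 4 passed the filter through the WT arrays alone and so had to differ, so counts over all 87 follow. Without a filter on intensity 20 of the 87 were lower, 23.0% beside 11% of all genes, and 7 were higher, 8.05% beside 8.93%. Among tested Cyp genes the WT and KO arrays did not overlap, with KO lower, for 12 of 34 (35.3% beside 20.5% of all tested genes) and, with KO higher, for 7 (20.6% beside 22%). Over all 87 this held, with KO lower, for 28 (32.2% beside 17.4% of all genes) and, with KO higher, for 10 (11.5% beside 21.0%). Over all 87 genes the median difference was -0.02, with a range from -3.29 to 0.55, and over all 19938 genes it was 0.04. In a sorted bulk sample fewer cells that transcribe a gene and less of its RNA per cell cannot be told apart.

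**Figure D1:**
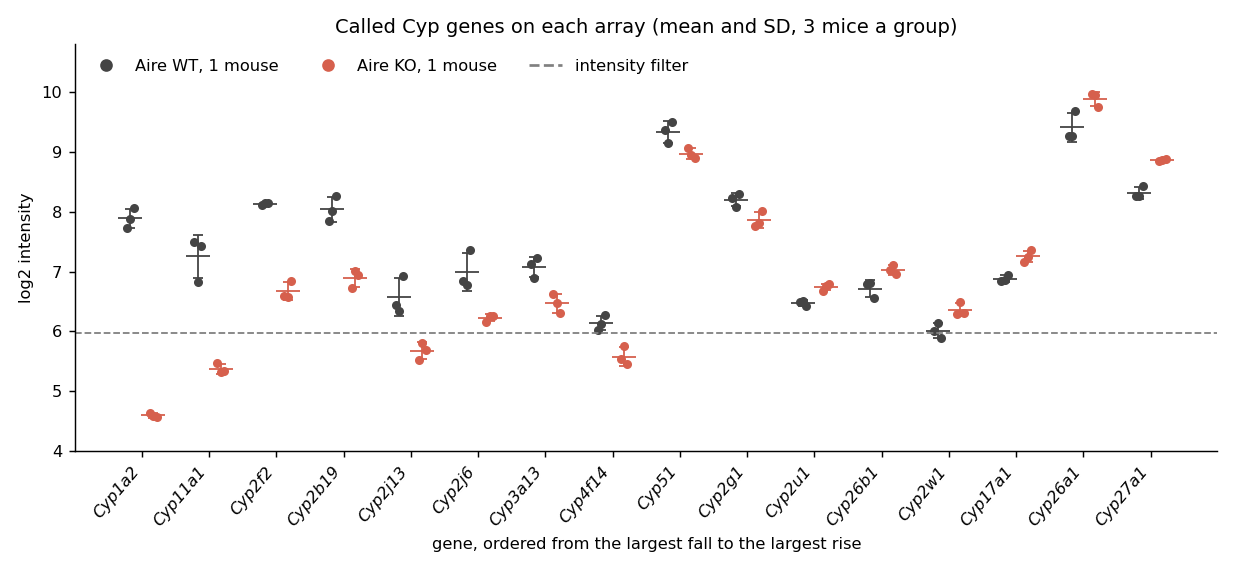
Log2 intensity (vertical axis) of the 16 called Cyp genes (horizontal axis) on each array, with points for the 3 WT and 3 KO mice, group means with SD as bars, and the filter at 5.97 as a dashed line. The groups are apart for each of the 16 genes, and Cyp1a2, Cyp11a1, Cyp2j13 and Cyp4f14 lie under the line on all KO arrays.

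WT replicate 3 was the WT array least like the KO arrays (0.976 to 0.979), and it read highest of the WT arrays for 8 of the 10 lower Cyp genes, beside 58.2% of the 1963 lower genes of the whole array. Without it 8 Cyp genes were lower and 3 higher. Without KO replicate 2 there were 9 lower and 3 higher. Of the 16 called genes 11 kept their call in each of the 16 other settings that tested them, and the 5 that did not (Cyp51, Cyp2g1, Cyp2w1, Cyp26b1 and Cyp2u1) are given below with their values.

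Family 1 holds 3 measured genes, enzymes that oxidise flat aromatic molecules and are induced through the aryl hydrocarbon receptor. Cyp1a2, which in liver clears caffeine and activates aromatic amines, read 7.73, 7.88 and 8.06 on the WT arrays and 4.64, 4.59 and 4.56 on the KO arrays. All KO arrays were far under the filter and all WT arrays far over it. The difference was -3.29 (SE 0.09, limma adjusted p = 2.2e-09), and since the KO level may be array background the 9.80-fold fall is limited by it. Cyp1a1, the neighbouring gene, was too dim on all 6 arrays, at 5.46, 5.47 and 5.24 in WT and 5.03, 5.16 and 5.08 in KO. Its groups did not overlap, the difference was -0.30, and without a filter the adjusted p was 0.041. Cyp1b1, which also oxidises oestradiol, was not called at -0.18 (adjusted p = 0.25), and without KO replicate 2 it was, at -0.31 (adjusted p = 0.042).

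Cyp1a2 and Cyp1a1 lie next to each other on chromosome 9 and are read from opposite strands. The 250 bases before each start are shown because the pair lie side by side; they are RefSeq windows of build GRCm38.p6, at chr9:57683656-57683905 (minus strand) for Cyp1a2 and chr9:57697363-57697612 (plus strand) for Cyp1a1. Capitals mark CG dinucleotides and the motif TATAAA.
Cyp1a2: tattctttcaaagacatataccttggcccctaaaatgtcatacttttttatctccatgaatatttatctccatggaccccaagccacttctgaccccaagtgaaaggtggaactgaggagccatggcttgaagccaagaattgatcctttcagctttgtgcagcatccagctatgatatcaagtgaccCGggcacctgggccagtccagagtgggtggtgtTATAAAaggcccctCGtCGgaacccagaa
Cyp1a1: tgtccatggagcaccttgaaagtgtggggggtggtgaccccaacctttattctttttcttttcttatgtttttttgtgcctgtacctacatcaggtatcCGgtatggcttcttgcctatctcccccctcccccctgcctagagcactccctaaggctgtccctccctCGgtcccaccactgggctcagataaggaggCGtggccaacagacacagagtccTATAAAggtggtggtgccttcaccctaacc
Each window holds 3 CG dinucleotides and a TATAAA, at position -29 for Cyp1a2 and -30 for Cyp1a1. TATAAA was found on either strand in 12.4% of all 32851 RefSeq windows and for 23 of 64 matched Cyp genes. GCGTG, the core bound by the aryl hydrocarbon receptor, was found on either strand in 28.2% of windows, in that of Cyp1a1 at -54 and not in that of Cyp1a2, which says only that these letters are not in this window.

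The receptor itself and its other targets were also read. Ahr was not called at -0.12 (adjusted p = 0.36). Of 4 measured targets outside the P450 genes 3 were tested and all were called, beside 26.1% of all tested genes. Aldh3a1, an aldehyde dehydrogenase, fell by 1.12 (adjusted p = 7.3e-06) and Tiparp, a poly-ADP-ribose polymerase, by 0.62 (adjusted p = 0.00017), while Nqo1, a quinone reductase, rose by 0.45 (adjusted p = 0.0042).

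Family 2 is the largest, with 44 measured genes besides Cyp2r1, which is given with vitamin D. Of the 44, 31 were too dim, 5 were lower, 2 were higher and 6 were not called. The median difference of the 44 was -0.01. Cyp2f2, the naphthalene-oxidising enzyme of airway club cells, read 8.11, 8.14 and 8.14 in WT and 6.60, 6.58 and 6.84 in KO. The WT arrays were within 0.02 (SD) of each other and far from every KO array. The fall of 1.46 (SE 0.09, limma adjusted p = 6.8e-07) was 2.74-fold. Its window at chr7:27119705-27119954 (plus strand, GRCm38.p6) is shown as an example of a promoter with 0 CG dinucleotides.
Cyp2f2: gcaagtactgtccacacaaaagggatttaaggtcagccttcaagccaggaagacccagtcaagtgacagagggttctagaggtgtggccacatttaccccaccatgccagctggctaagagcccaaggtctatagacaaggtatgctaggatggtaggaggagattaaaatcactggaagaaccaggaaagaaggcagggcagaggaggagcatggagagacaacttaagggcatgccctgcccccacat

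Cyp2b19 is the keratinocyte enzyme that makes epoxides of arachidonic acid. It read 7.85, 8.02 and 8.26 in WT and 6.72, 7.0 and 6.95 in KO, and the lowest WT array was above the highest KO array. It fell by 1.15 (SE 0.12, limma adjusted p = 2.8e-05), or 2.23-fold. Cyp2b23 was not called at -0.35 (adjusted p = 0.070) and its groups overlapped. It was called without WT1 (-0.45, adjusted p = 0.036) or without KO1 (-0.45, 0.044). Cyp2b9 and Cyp2b13 were too dim, at 0.09 each, and Cyp2b10 was too dim at -0.38.

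Cyp2g1, an enzyme of the olfactory mucosa, lay just beside Cyp2b19 on chromosome 7. It fell by 0.34 (SE 0.10, limma adjusted p = 0.025) from 8.20 ± 0.11 to 7.87 ± 0.13 (SD, n = 3), with the highest KO array at 8.02 and the lowest WT array at 8.09. Its adjusted p rose to 0.062 without WT1, 0.063 without WT3, 0.10 without KO1 and 0.073 without KO2, which ended the call. A probe set shared by Cyp2a5 and Cyp2a4, which oxidise coumarin and steroids, read 10.1, 10.2 and 10.3 in WT and 9.25, 9.19 and 9.39 in KO. It was lower on every KO array, by 0.92 or 1.89-fold (adjusted p = 0.00056 in limma over all probe sets). Which gene of the pair gave the signal cannot be told apart, and a probe set with 2 symbols is not among the 87.

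Cyp2j genes encode arachidonic acid epoxygenases, and all 6 measured members lie together on chromosome 4 with no other measured gene between them. Cyp2j13 read 6.44, 6.33 and 6.93 in WT and 5.53, 5.80 and 5.70 in KO. Only the WT arrays passed the filter, and WT replicate 3 stood above the other WT arrays. It fell by 0.89 (SE 0.14, limma adjusted p = 0.00081), or 1.86-fold. Cyp2j6 read 6.85, 6.78 and 7.35 in WT and 6.16, 6.26 and 6.27 in KO, again without overlap. Its fall was 0.77 (SE 0.13, limma adjusted p = 0.0016), or 1.70-fold. The other 4 were too dim: Cyp2j9, Cyp2j12 and Cyp2j5 differed by -0.46, -0.29 and -0.16, and Cyp2j11 by 0.23. For each of these 4 the groups were apart, so 5 of the 6 Cyp2j genes read lower on every KO array than on any WT array and 1 read higher, where 17.4% and 21.0% of all genes did so.

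The 2 higher genes of family 2 changed little. Cyp2w1, an enzyme of fetal gut and colon tumours, rose by 0.35 (SE 0.10, limma adjusted p = 0.019) from 6.01 ± 0.13 to 6.36 ± 0.11 (SD, n = 3), and lost its call without WT replicate 3 (0.051) or KO replicate 2 (0.070). Cyp2u1, a fatty acid hydroxylase known from brain and thymus, rose by 0.27 (SE 0.08, limma adjusted p = 0.029) from 6.48 ± 0.05 to 6.74 ± 0.06. Leaving out any 1 of the 6 arrays took Cyp2u1 past the threshold, with adjusted p between 0.052 and 0.11.

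The largest drug-metabolising subfamilies of liver were hardly readable here. All 13 Cyp2c genes were too dim, with differences from -0.28 to 0.29 and a median of -0.02. Of 10 Cyp2d genes 6 were too dim and 4 were not called, among them Cyp2d40 at 0.12 (adjusted p = 0.52), and the median was 0.12. Cyp2e1, the ethanol-oxidising enzyme, was too dim at -0.19. A dim reading gives no level, so these genes were not counted as unchanged.

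Family 3 holds the Cyp3a genes, which oxidise many drugs and steroids in liver and gut. Of 6 measured members 1 was lower and 5 were too dim. Cyp3a13, the member best known from intestine, read 7.12, 6.90 and 7.22 in WT and 6.63, 6.47 and 6.32 in KO. The groups did not overlap and the spread within each was similar (SD 0.17 and 0.16). It fell by 0.61 (SE 0.11, limma adjusted p = 0.0019), or 1.52-fold. Among the dim members Cyp3a16 differed by -0.95, Cyp3a44 by -0.43 and Cyp3a11 by -0.41, with no overlap of the groups and adjusted p of 2.5e-05, 0.030 and 0.0034 without a filter. Cyp3a57 was at -0.16, and Cyp3a25 was at 0.10 with overlapping groups.

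A pair of further probe sets matched several Cyp3a genes at once. The one shared by Cyp3a41b, Cyp3a44 and Cyp3a41a read 5.72, 6.68 and 6.68 in WT and 3.91, 4.06 and 4.31 in KO, and fell by 2.27 or 4.82-fold (adjusted p = 0.0033, limma over all probe sets with no filter). The one shared by the same genes and Cyp3a11 read 5.53, 6.25 and 6.35 in WT and 3.75, 3.90 and 4.25 in KO, and fell by 2.08 or 4.23-fold (adjusted p = 0.0027). Both were lower on every KO array, and WT replicate 1 was the lowest WT array in both. The pair share genes and possibly probes, so they are not independent readings, and which gene gave the signal cannot be told apart. A probe set shared by Cyp3a59, Cyp3a57 and Cyp3a25 was at -0.06.

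**Figure D2:**
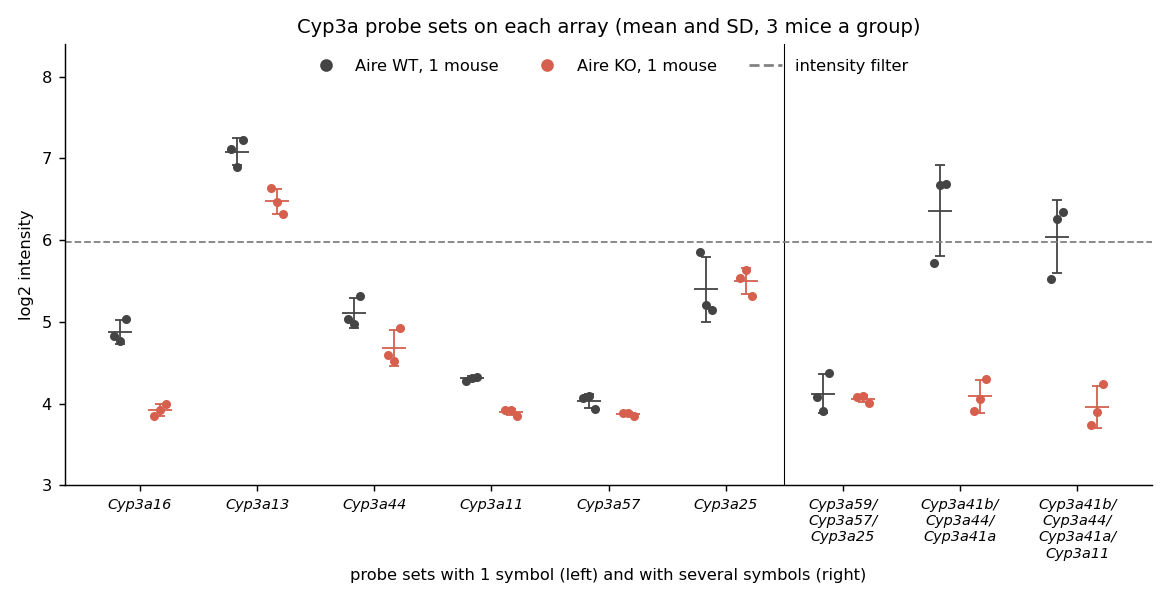
Log2 intensity (vertical axis) of the Cyp3a probe sets on each array, with 1-symbol probe sets on the left and those with several symbols on the right; points are mice, and bars are group means with SD (n = 3). The widest gaps are those of the probe sets that name Cyp3a41a and Cyp3a41b, at -2.27 and -2.08.

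Family 4 enzymes hydroxylate the ends of fatty acids and of lipid mediators. Of 16 measured members 10 were too dim, 1 was lower and 5 were not called, and the median difference was 0.02. Cyp4f14, which inactivates leukotriene B, read 6.03, 6.13 and 6.27 in WT and 5.53, 5.75 and 5.45 in KO. It passed the filter through the WT arrays alone, and each was above every KO array. It fell by 0.56 (SE 0.10, limma adjusted p = 0.0019), or 1.48-fold. Cyp4f39, which makes the very long hydroxylated fatty acids of the skin barrier, was not called at -0.20 (adjusted p = 0.13), although its groups did not overlap. Cyp4f16 was not called at 0.06 (adjusted p = 0.69). Among the dim members the groups were apart for Cyp4a12a at -0.74, Cyp4a12b at -0.53 and Cyp4f18 at -0.44, with adjusted p of 0.0048, 0.0029 and 0.0082 without a filter, and Cyp4x1 was at 0.27 (0.038).

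Steroid hormone synthesis was covered by 5 genes, of which 1 was lower, 1 was higher, 1 was not called and 2 were too dim. Cyp11a1 cleaves the side chain of cholesterol in mitochondria, the first step of all steroid hormones. It read 7.49, 6.83 and 7.43 in WT and 5.48, 5.32 and 5.34 in KO. All KO arrays were under the filter, and WT replicate 2 was the lowest WT array. It fell by 1.87 (SE 0.15, limma adjusted p = 4.3e-06), a 3.67-fold change limited by background on the KO side. Cyp17a1, which turns pregnane steroids towards androgens, read 6.84, 6.86 and 6.95 in WT and 7.17, 7.24 and 7.35 in KO. It was higher on every KO array, by 0.37 (SE 0.08, limma adjusted p = 0.0077) or 1.29-fold. Cyp11b2, the aldosterone synthase, was not called at 0.01, and Cyp11b1 and Cyp21a1, adrenal enzymes of corticosteroid synthesis, were too dim.

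The partners of these enzymes include carriers and dehydrogenases that make or inactivate steroids. Of 10 measured genes 2 were lower, 2 were not called and 6 were too dim. Akr1c18, which inactivates progesterone, fell by 4.45 (limma adjusted p = 3.5e-09) and Star, which brings cholesterol into mitochondria, by 0.48 (adjusted p = 0.0022). Both passed the filter through the WT arrays alone and so had to differ, and background limits the size of their falls. Hsd11b1 and Hsd11b2, which interconvert active and inactive glucocorticoid, were not called at -0.08 and -0.05. Among the dim partners Sult1e1, Hsd17b3 and Hsd3b6 were at -1.53, -1.39 and -1.16, with the groups apart. Without a filter their limma adjusted p was 2.6e-06, 2.2e-05 and 0.0052. Hsd17b1 was at 0.27, also with the groups apart (0.080). Hsd3b1 and Hsd3b2 were at -0.10 and 0.10 with overlapping groups.

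Cholesterol and bile acid metabolism was covered by 7 genes, of which 1 was lower, 1 was higher, 3 were not called and 2 were too dim. Cyp51, the sterol demethylase of cholesterol synthesis, read 9.37, 9.14 and 9.49 in WT and 9.07, 8.94 and 8.90 in KO. The lowest WT array was close above the highest KO array. It fell by 0.36 (SE 0.10, limma adjusted p = 0.022), or 1.29-fold, and its adjusted p rose past the threshold without WT1 (0.059), WT3 (0.062), KO2 (0.064) or KO3 (0.087). Cyp27a1, the mitochondrial enzyme that hydroxylates sterol side chains, read 8.26, 8.26 and 8.43 in WT and 8.85, 8.86 and 8.89 in KO. The KO arrays lay within 0.02 (SD) of each other and above every WT array. It rose by 0.55 (SE 0.08, limma adjusted p = 0.00061), or 1.46-fold, the largest rise of any Cyp gene.

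The other 3 tested genes of this group missed the threshold. Cyp39a1, an oxysterol hydroxylase of bile acid synthesis, was at -0.28 (adjusted p = 0.051) with groups that did not overlap, and was called without WT2 (-0.37, 0.021) and with array weights (-0.28, 0.040). Cyp46a1, which clears cholesterol from brain, was at 0.18 (adjusted p = 0.20) and Cyp7b1, another oxysterol hydroxylase, at -0.04 (0.83). Cyp7a1, the rate-limiting enzyme of bile acid synthesis, and Cyp8b1, which sets the bile acid profile, were too dim. The other enzymes and regulators of cholesterol synthesis did not move one way, since of 17 tested genes 2 were lower, 2 were higher and 13 were not called, with a median of -0.03. Hmgcs1, an early enzyme, fell by 0.50 (adjusted p = 0.0023) and Mvd, a later one, rose by 0.40 (adjusted p = 0.014). Idi1 was at -0.41 (adjusted p = 0.048), a call lost without WT replicates 1 or 3 or KO replicates 1 or 3 (0.069 to 0.18). Tm7sf2 was at 0.42 (0.029), a call lost without WT replicate 3 or KO replicates 1 or 3 (0.060 to 0.10).

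Vitamins A and D were covered by 5 genes, of which 2 were higher, 1 was not called, 2 were too dim and 0 were lower. Cyp26a1 breaks down retinoic acid and is itself a classic target of the retinoic acid receptor. It read 9.26, 9.27 and 9.68 in WT and 9.96, 9.94 and 9.75 in KO. WT replicate 3 and KO replicate 3 came close to each other, and the groups still did not overlap. The rise was 0.48 (SE 0.12, limma adjusted p = 0.012), or 1.39-fold. Cyp26b1, the second retinoic acid hydroxylase, rose by 0.31 (SE 0.09, limma adjusted p = 0.030) from 6.72 ± 0.14 to 7.03 ± 0.08 (SD, n = 3), and lost its call without WT3 (0.069), KO1 (0.078), KO2 (0.092) or KO3 (0.051). Cyp26c1, the neighbour of Cyp26a1 on chromosome 19, was not called at 0.01 (adjusted p = 0.92). Cyp2r1 and Cyp27b1, which make the active form of vitamin D, were too dim.

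The windows of the genes with the largest rises, Cyp27a1 (chr1:74713285-74713534, plus strand) and Cyp26a1 (chr19:37697558-37697807, plus strand), are shown beside those of the lower genes above, in build GRCm38.p6 with CG in capitals.
Cyp27a1: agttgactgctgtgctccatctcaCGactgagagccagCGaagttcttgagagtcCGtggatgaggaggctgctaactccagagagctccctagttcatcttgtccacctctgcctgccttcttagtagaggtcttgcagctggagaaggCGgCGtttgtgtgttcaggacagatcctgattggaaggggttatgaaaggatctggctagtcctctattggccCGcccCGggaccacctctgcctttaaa
Cyp26a1: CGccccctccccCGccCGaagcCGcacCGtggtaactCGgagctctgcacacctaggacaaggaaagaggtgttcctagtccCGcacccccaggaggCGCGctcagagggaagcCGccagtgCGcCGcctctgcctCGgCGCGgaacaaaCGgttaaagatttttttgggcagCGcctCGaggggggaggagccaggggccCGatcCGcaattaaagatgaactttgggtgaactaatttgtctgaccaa
They hold 7 and 20 CG dinucleotides. The window of Cyp26a1 also holds a match to the kind of direct repeat that retinoic acid receptors bind, 2 hexamers spaced by 5 bases, at chr19:37697776-37697792 and position -32; here capitals mark the hexamers, which match the motif on the minus strand.
Cyp26a1 direct repeat: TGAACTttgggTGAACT
The motif searched was the hexamer NGNTCA followed by 5 bases and then NGNTCA again, on either strand. It was found in 0.776% of all windows and, among 64 matched Cyp genes, for Cyp26a1 and Cyp2c50.

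Genes that make, bind and store retinoids were read beside the Cyp26 genes, with vitamin D handling in the same list. Of 11 tested 5 were lower, 1 was higher and 5 were not called, with a median of -0.20. Of all tested genes 14.1% were lower and 12% higher. The retinoic acid binding protein genes Crabp1 and Crabp2 fell by 2.67 and 0.70 (limma adjusted p = 4.9e-07 and 0.00034). Aldh1a2 and Aldh1a1, which make retinoic acid, fell by 1.68 and 1.5 (adjusted p = 1.9e-06 and 3.5e-06). For Aldh1a2 and Aldh1a1 only the WT arrays passed the filter, so they had to differ and background limits the size of their falls. Lrat, which stores retinol as esters, rose by 0.72 (adjusted p = 0.00017). Retinoic acid itself was not measured.

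**Figure D3:**
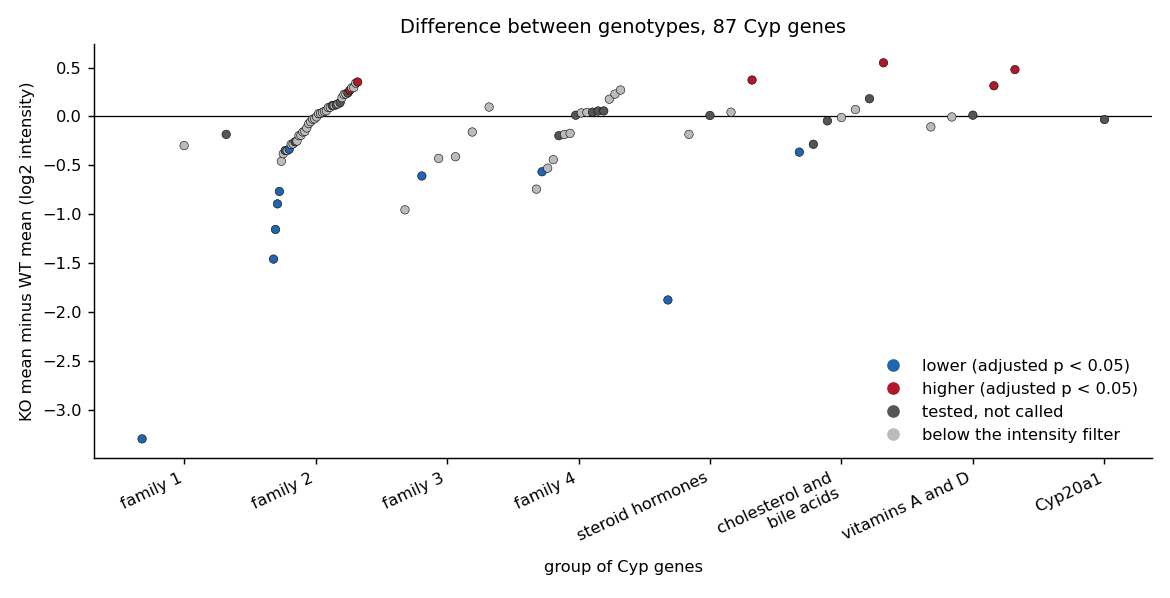
KO mean minus WT mean in log2 intensity (vertical axis) for each of the 87 Cyp genes, by role (horizontal axis), with lower genes in blue, higher genes in red, genes not called in dark grey and genes under the filter in light grey. The deepest points belong to families 1 and 2 and to steroid hormone synthesis (-3.29, -1.46 and -1.87), and no point lies above 0.55.

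Cyp20a1, a P450 with no settled substrate, stands outside these roles and was not called at -0.03 (adjusted p = 0.89).

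Neighbouring Cyp genes did not always move together. Cyp1a2 and Cyp11a1, which had the largest falls, are on chromosome 9 with Cyp1a1 and 5 other measured genes between them (Edc3, Clk3, Arid3b, Ubl7 and Sema7a). All 5 were tested and 0 were called, with differences from -0.02 to 0.12, and Ccdc33 on the far side of Cyp11a1 rose by 0.48 (limma adjusted p = 0.00088). On chromosome 7 a cluster of 11 Cyp genes from Cyp2s1 to Cyp2t4 held 3 lower genes (Cyp2b19, Cyp2g1 and Cyp2f2), 2 not called and 6 too dim, with a median of -0.26. On chromosome 17 a cluster of 8 Cyp4f genes held 1 lower gene, and in the cluster of 10 Cyp2d genes on chromosome 15 there were 0 called. The 12 neighbouring Cyp2c genes of chromosome 19 were all too dim. A cluster was a run of Cyp genes with no step over 10 measured genes.

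Promoters were compared by their CG dinucleotides, which the rule for members did not use. RefSeq windows of 250 bases were matched for 64 of the 87 genes, for 9 of the 10 lower genes and 4 of the 6 higher ones. The median was 3 CG for the lower genes, over 14 windows of which 13 held 4 or fewer, and the exception was Cyp51 with 20. Cyp4f14, Cyp2j13 and Cyp11a1 gave repeated windows, so these windows are not separate genes. The windows of the higher genes held 5 (Cyp2w1), 7 (Cyp26b1), 7 (Cyp27a1) and 20 (Cyp26a1). The Cyp genes not called had a median of 3, those too dim 1.5, and all Cyp genes 2. Among other tested genes the median was 14, and it was 11 for those lower, 12 for those higher and 3 for the 224 genes lower by 2-fold or more. Windows with 4 or fewer CG made up 92.9% for lower Cyp genes and 0% for higher ones. They made up 58.3% for Cyp genes not called and 97.6% for those too dim. The share was 84.7% over all Cyp windows and 44.4% over all RefSeq windows. It was 18.3% for other tested genes, 30.2% for those lower and 64.4% for those lower by 2-fold or more. Other tested genes exclude dim ones, whereas 39 of the 64 matched Cyp genes were too dim. Low CG content was common to most Cyp genes, and no test between them was made.

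**Figure D4:**
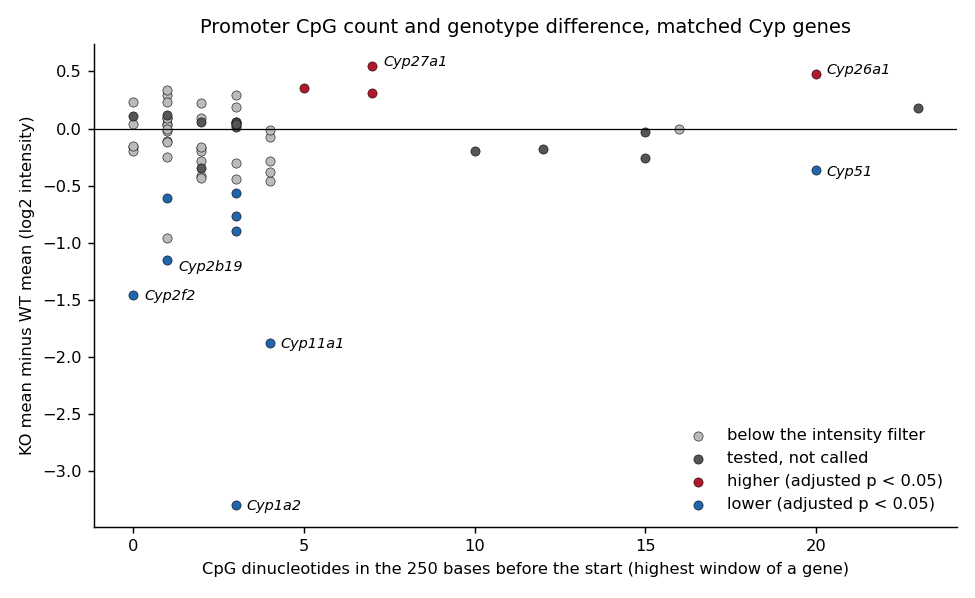
KO minus WT difference in log2 intensity (vertical axis) against the number of CG dinucleotides in the 250 bases before the start (horizontal axis, highest window of a gene) for the matched Cyp genes, coloured by call. The deep falls lie at 4 CG or fewer, and Cyp51 and Cyp26a1, each with 20, lie below and above 0.

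P450 enzymes depend on electron donors and on haem, and most genes of both lists were not called. Of 8 tested electron donors and partners 1 was higher, 1 was lower and 6 were not called, with a median of 0.07. Cyb5r4, a cytochrome reductase, rose by 0.36 (limma adjusted p = 0.0074), and Cyb5a, the cytochrome that supports many P450 reactions, was not called at 0.09 (adjusted p = 0.55). Pgrmc1, a P450-binding haem protein, was at -0.27 (adjusted p = 0.048), a call lost without any 1 array other than WT replicate 3 (0.097 to 0.15). Of 12 tested genes of haem synthesis and breakdown 3 were higher, 2 were lower and 7 were not called. Hmox2 rose by 0.40 (adjusted p = 0.0029) and Cpox fell by 0.56 (adjusted p = 0.0060). Alas1, the first enzyme of the pathway, was at 0.33 (0.021), a call lost without WT replicates 1 or 2 or KO replicates 2 or 3 (0.052 to 0.082). Blvrb was at 0.37 (0.018), lost without KO replicates 1 or 2 (0.065 and 0.064), and Hmox1 at -0.32 (0.038), lost without WT replicate 3 or any 1 KO array (0.072 to 0.13).

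The factors known to drive P450 genes were, with 1 exception, not called. Of 17 tested nuclear receptors and partner factors 16 were not called and 8 further ones were too dim. Nr1i2, the pregnane X receptor that induces Cyp3a genes in liver, rose by 0.39 (SE 0.09, limma adjusted p = 0.0081). It lay close to the filter, at 5.73, 5.99 and 5.77 in WT and 6.23, 6.19 and 6.26 in KO. All KO arrays and only 1 WT array passed the filter. The 1 tested Cyp3a gene fell, and a link with Nr1i2 was not tested. Hnf4a, a main factor of liver and gut, was not called at -0.19 (adjusted p = 0.18).

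Conjugating enzymes act on many P450 products. Of 16 tested conjugating and accessory enzymes 11 were lower, 2 were higher and 3 were not called, where 14.1% of all tested genes were lower. The list was chosen with earlier results of these data known, so this contrast is a description and not a test. Ugt2b34, at -1.22, passed the filter through the WT arrays alone and so had to differ. The median was -0.54 over the 16, beside 0.02 over all tested genes, and -0.09 over all 28 measured, of which 12 were too dim. The glutathione transferase genes Gstm3, Gsta4, Gstm1 and Gsta3 differed by -2.35, -1.82, -1.65 and -0.69, with limma adjusted p of 1.4e-07, 1.8e-07, 1.2e-06 and 0.0027. The flavin monooxygenase genes Fmo2 and Fmo1 fell by 1.85 and 1.12 (1.6e-07 and 3.5e-06). Of 14 tested eicosanoid enzymes 4 were lower, 1 was higher and 9 were not called, beside 14.1% lower and 12% higher of all tested genes. These enzymes share arachidonic acid with the Cyp2j and Cyp4f genes. The lipoxygenase genes Alox12b and Alox15 fell by 1.45 and 0.81 (adjusted p = 9.7e-07 and 7.2e-05). Ephx1, an epoxide hydrolase, fell by 0.84 (adjusted p = 0.00016) and Ptgds, a prostaglandin synthase, by 0.66 (0.00034). Ptgs2 was at 0.28 (0.028), a call lost without any 1 array other than WT replicate 1 (0.059 to 0.078).

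Many P450 genes are best known from liver and gut, and other genes of these organs were read beside them. Of 10 tested enterohepatic markers 6 were lower, 1 was higher and 3 were not called, beside 14.1% lower and 12% higher of all tested genes. Here and below, linear intensities were summed over all measured genes of a list, dim ones included, so the brightest genes weigh most. For the 11 measured enterohepatic markers the sum was 4067 to 4469 in WT and 2559 to 2707 in KO. Apoa1, Alb, Apob and Apoa4 differed by -2.52, -2.01, -1.24 and -1.05 (limma adjusted p = 2.2e-07, 1.3e-06, 1.2e-05 and 2.2e-06), and Cdx2 by -0.43 (0.0073), while Cdx1 rose by 0.36 and Hnf4a, Hnf4g and Vil1 were not called. Of 9 measured hepatocyte genes 4 were lower and 5 were too dim, among them the bile acid carrier gene Slc10a1, and the sum was 580 to 613 in WT and 405 to 439 in KO. Cps1, a urea cycle enzyme, fell by 1.22 (adjusted p = 1.6e-06). Cps1 and Alb passed the filter through the WT arrays alone and so had to differ, and background limits the size of their falls. The summed levels of both lists were lower on every KO array, and their part in the Cyp result was not tested.

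Markers of other cells that the sort could hold were read in the same way. Of 7 tested thymocyte markers 1 was lower and 6 were not called; Cd3g was at -1.40 (limma adjusted p = 0.0072, and 0.0997 with trended and robust variances), Cd3e was at -0.01, and the sum was 1002 to 1687 in WT and 740 to 990 in KO. Of 8 tested dendritic cell and macrophage markers 3 were lower and 1 was higher, with a sum of 3722 to 4176 in WT and 3584 to 3685 in KO, while Itgax was too dim. Adgre1 was at -1.58 (adjusted p = 2.3e-07) and Csf1r at -0.54 (0.0011). Adgre1 passed the filter through the WT arrays alone and so had to differ. Ptprc, which encodes CD45, was at -0.62 (0.022), a call lost without WT replicate 3 or KO replicate 3 (0.064 and 0.093). The higher marker was Cd68, at 0.32 (limma adjusted p = 0.0497). Its groups overlapped, and its call was lost without a filter on intensity (0.059). The part of these cells in the lower Cyp genes was not tested.

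Summed levels of the remaining marker lists were as follows in the same arrays. The brightest genes weigh most in such sums, so a sum is not the level of a cell type. In WT means these were H2-Aa, H2-Ab1 and Cd74 for medullary cells (13.43, 13.28 and 13.49) and Krt8 for cortical cells (12.85). Blnk was the brightest B cell marker (10.63), and Lyz2 the brightest dendritic cell and macrophage marker (11.33). The summed intensity of medullary markers was 49897 to 50360 in WT and 50661 to 52563 in KO. Of 5 tested cortical epithelial markers 1 was lower and 2 were higher, with a sum of 9719 to 10545 in WT and 10000 to 11129 in KO, and Psmb11, which defines cortical cells, was too dim. Of 5 measured B cell markers Pax5, Cd79b and Blnk were higher by 0.31, 0.24 and 0.24 (adjusted p = 0.033, 0.040 and 0.047). These calls were lost without WT1 among others (0.10, 0.097 and 0.11). Cd79a and Ms4a1 were too dim, at -0.11 and -0.48. The groups were apart for Ms4a1 (adjusted p = 0.0052 in limma without a filter). The sum of the 5 markers was 1992 to 2052 in WT and 2253 to 2429 in KO. Of 6 tested fibroblast markers 1 was lower (Col1a1 at -0.63) and 1 was higher (Dcn at 0.75), with a sum of 1629 to 1878 in WT and 1873 to 2340 in KO. Of 5 tested endothelial markers 0 were called, with a sum of 547 to 599 in WT and 539 to 575 in KO. Of 2 tested red cell markers 1 was lower, with a sum of 274 to 317 in WT and 262 to 350 in KO. Their part in the Cyp results was not tested.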

How the data were processed

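Expression was measured in MECs of 6 mice, 3 WT and 3 Aire KO, on 1 Affymetrix array each. The authors deposited intensity values on the linear scale, 1 per probe set. Per the submitters' processing notes the method was RMA, which subtracts background, evens out the distributions of the arrays and summarises probes. Its version and the genome build were not found in the labels or the files. These values hold no detection call, background compresses the fold of dim genes, and 3 arrays a group limit the precision. Of 35512 deposited probe sets 21789 have 1 gene symbol in the platform annotation, 1621 several and 12102 none. Per gene the 1-symbol probe set of highest mean was kept (19938 genes), and its log2 was taken without a pseudocount. All 87 Cyp genes matched RefSeq by Entrez identifier; RefSeq (GRCm38.p6) gave gene order and promoter windows. A further 7 probe sets with several symbols name a Cyp gene and were kept apart.

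Genotype alone was tested with limma 3.58.1 (lmFit, then eBayes) in R 4.3.3, on all 6 arrays and after the filter at the 40th percentile; the script was checked on simulated data. Gene order, windows and figures used Python 3.11.15, pandas 2.3.3 and matplotlib 3.10.9. The p-values cover the spread between mice. The members, roles, pathway and marker lists were chosen with earlier results of these data known. Values on each array are given for the 12 called Cyp genes with the largest differences, and differences for the other called ones; of members not called the brightest of each role is named, and of each list up to 5 called genes by adjusted p and the first symbol. Other Cyp genes named were chosen after their values were seen. So were Hsd11b1, Hsd11b2, Ahr, Ms4a1, Ugt2b34, the dim steroid partners, the brightest markers and the genes beside Cyp11a1. Several Cyp subfamilies hold near-identical copies, so a probe set may also read a paralog, which was not tested. Alternatives were other filters, normalizations, offsets, probe set rules, variance models and weights per array, a block for the replicate number, and each array left out. Fits over probe sets on their own, and over those with several symbols without a filter, were added after seeing the data.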

Additional observations from a re-analysis of the deposited data

How the results depend on the processing

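Of the 16 called Cyp genes 11 kept their call in each of the 16 other settings that tested them, 5 lost it in at least 1, and 0 reversed; 223 of 247 fits kept the call. The 10 lower genes became 20 with no filter and 5 with the filter at the 60th percentile, which tested fewer genes, and the 6 higher ones became 7 and 2. Leaving out 1 array gave 8 to 11 lower and 3 to 5 higher Cyp genes, and 1364 to 1877 lower and 1052 to 1547 higher genes of the whole array. The median difference of all Cyp genes was -0.02 and, with 1 array left out, lay between -0.048 (without WT replicate 3) and -0.014. With every probe set on its own 8 were lower and 5 higher. Same-numbered WT and KO arrays did not deviate together (correlations of -0.02, -0.21 and -0.06). Arrays of other numbers correlated at -0.095 to 0.15. With 3 arrays a group these values cannot settle whether the numbers pair the arrays. With the replicate number as a block 10 Cyp genes were lower and 5 higher, Cyp2u1 being lost at an adjusted p of 0.067. No other Cyp call changed with the block. Of 65 other named genes 18 lost or gained a call in at least 1 setting and 0 reversed. The cause of these changes was not tested. The intensity of dim probe sets limits what can be said of 53 Cyp genes.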
